A study of Homo sapiens with 36 samples.

Results

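The insulin-like growth factor II axis is described here in WiT49, a cell line from an anaplastic Wilms tumour of the kidney, as 10 genes: IGF2, H19, CDKN1C, IGF1R, IGF2R, INSR, IRS1, IGF2BP1, IGF2BP2 and IGF2BP3. They were chosen by gene symbol, with no measured value in the rule but with earlier results of these data known. Each symbol matched 1 gene of the 58219 listed for total RNA and of the 43582 listed for ribosome footprints. The cells were given actinomycin D (actD), a DNA-intercalating inhibitor of RNA synthesis, at 2 nM, or dimethyl sulfoxide (DMSO), its vehicle. Treatment lasted 6 h, 72 h or 2 weeks, the last as 2 weekly cycles with the additive present for 3 days and absent for 4. There were 12 groups, 3 libraries in each. Total RNA measures transcript abundance, and footprints are the fragments that ribosomes shield from nuclease. All groups are cultures of 1 cell line. No label says whether the 3 libraries of a group came from separate cultures, so p-values measure the spread between these libraries, which may be technical.

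IGF2 encodes a secreted growth factor of the fetus that signals through the tyrosine kinase receptors IGF1R and INSR, whose adaptor IRS1 passes the signal to the PI3 kinase and AKT pathway, while IGF2R binds the factor at the cell surface and carries it to the lysosome. IGF2 and the noncoding RNA H19 are imprinted neighbours with shared enhancers: IGF2 is normally expressed from the paternal allele and H19 from the maternal allele, and gain of methylation at the H19 upstream control region, with loss of H19 and biallelic IGF2, is a well known lesion of Wilms tumour. CDKN1C, a cyclin-dependent kinase inhibitor, belongs to the adjacent imprinted domain. IGF2BP1, IGF2BP2 and IGF2BP3 are RNA-binding proteins named after IGF2 mRNA, and they affect the stability, localisation and translation of many messages.

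RNA libraries held 40221994 to 69240041 counts and footprint libraries 152556 to 1281039 counts, of which 23134 to 283435 fell on protein-coding genes. The title and treatment entries of the 2-week RNA libraries contradict their library names, so those arms are called "named actd" and "named dmso", and their difference is named actd minus named dmso. Among 9 markers of Wilms blastema and nephron progenitors, NCAM1 (7.14 to 24.7 CPM, counts relative to the scaled library size) and WT1 (3.77 to 37.6 CPM) were found in all 18 RNA libraries, whereas the defining progenitor genes SIX2 and CITED1 reached at most 0.773 CPM. Of the other epithelial markers, PAX8 reached at most 0.332 CPM, LHX1 0.637 to 3.23, CDH1 0.661 to 3.71, EPCAM 5.98 to 21.7 and KRT19 8.21 to 59.2 CPM. Epithelial KRT8 and KRT18 and stromal COL3A1, COL1A1 and VIM were abundant (157 to 4421 CPM), COL1A2 was listed at 0 in every RNA library, and the 8 blood and endothelial markers summed to at most 2.19 CPM. In bulk samples, fewer cells of a kind and less RNA per cell cannot be told apart.

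The locus is shown first, because its RNAs differ most in level. In GENCODE release 29 (GRCh38), IGF2 lies at chr11:2129112-2149603 on the minus strand (ENSG00000167244), H19 at chr11:1995176-2001470 on the minus strand (ENSG00000130600) and CDKN1C at chr11:2883213-2885773 on the minus strand (ENSG00000129757). IGF1R lies at chr15:98648539-98964530 (plus), IGF2R at chr6:159969099-160113507 (plus), INSR at chr19:7112255-7294034 (minus) and IRS1 at chr2:226731317-226799759 (minus). IGF2BP1 lies at chr17:48997412-49055650 (plus), IGF2BP2 at chr3:185643739-185825056 (minus) and IGF2BP3 at chr7:23310209-23470467 (minus). MIR675 lies in an exon of H19 and MIR483 in an intron of IGF2. The microRNA of H19 has the 2 mature forms below (RefSeq, GRCh38.p14, chromosome 11, minus strand, bases 1996768 to 1996787 and 1996800 to 1996822), with the seed, bases 2 to 8, in capitals. Their seeds differ.
hsa-miR-675-3p: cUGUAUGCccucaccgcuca
hsa-miR-675-5p: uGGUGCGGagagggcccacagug
The promoter windows of H19, the least abundant of the 10 RNAs, and of INSR, whose RNA differed most between the arms at 72 h, follow from 250 bases before to 50 bases after the start (RefSeq, GRCh38.p14, chr11:2001217-2001516 and chr19:7294365-7294664, both minus strand), with CG dinucleotides, the bases where DNA methylation sits, in capitals.
H19 promoter window: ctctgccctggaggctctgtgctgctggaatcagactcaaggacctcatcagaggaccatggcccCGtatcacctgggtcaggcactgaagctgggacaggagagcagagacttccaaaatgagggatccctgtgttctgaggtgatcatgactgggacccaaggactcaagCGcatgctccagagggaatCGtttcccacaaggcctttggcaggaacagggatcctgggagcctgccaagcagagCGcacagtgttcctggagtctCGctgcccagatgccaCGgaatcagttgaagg
INSR promoter window: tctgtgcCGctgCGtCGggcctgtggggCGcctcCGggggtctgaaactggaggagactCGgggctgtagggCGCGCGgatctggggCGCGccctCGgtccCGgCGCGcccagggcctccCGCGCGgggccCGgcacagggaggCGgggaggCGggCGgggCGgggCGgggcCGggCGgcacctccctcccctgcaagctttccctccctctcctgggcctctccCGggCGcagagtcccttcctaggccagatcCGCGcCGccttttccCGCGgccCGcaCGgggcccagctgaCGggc
CG reads the same on both strands. The H19 window holds 6 CG, and 66.3% of 35116 promoter windows of that length hold at least as many, against a median of 14. The INSR window holds 36, a number reached by 12.7% of windows. RefSeq windows matched 7 of the 10 genes, with 55 CG in IGF1R, 47 in IRS1, 41 in IGF2R, 17 in IGF2BP3 and 38 and 3 in the windows of 2 starts of IGF2BP2. Methylation was not measured, so these counts describe the sequence only.

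IGF2 was by far the most abundant RNA of the axis, and H19 the least. In CPM per kilobase of merged exon, the scale on which genes can be compared, IGF2 stood at 211 ± 33.1 (SD, n = 3) in the vehicle arm at 6 h, at 240.4 ± 24.2 at 72 h and at 175 ± 33.1 in the arm named dmso at 2 weeks. This put it at place 105, 86 and 86 among 19763 genes, the protein-coding genes plus H19. IGF2BP1 came next with 75.7 ± 4.26, 47.9 ± 13.9 and 41.1 ± 2.19, followed in each of the 3 tables by IGF2BP2, IGF2BP3 and IGF1R. Below IGF1R the order moved: at 6 h IGF1R and IRS1 overlapped (9.17 ± 1.67 and 8.74 ± 0.533), at 72 h IRS1 and INSR overlapped (3.26 ± 0.1296 and 2.73 ± 1.17), and at 2 weeks IGF2R and IRS1 overlapped (4.42 ± 0.818 and 4.00 ± 0.856). All other neighbours in the order were separated in all 3 libraries of the vehicle arm. CDKN1C and H19 closed it, CDKN1C at 0.956 ± 0.263, 1.20 ± 0.263 and 0.980 ± 0.117, and H19 at 0.369 ± 0.0662, 0.0256 ± 0.0250 and 0.137 ± 0.115. With the longest transcript as length instead, IGF2 came to 263.9, 300.4 and 218.8, and IGF2BP3 moved above IGF2BP2 (36.6 against 29.6 at 6 h). The tables of each time carry their own count scale, so these levels are compared only within a time.

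**Figure D1:**
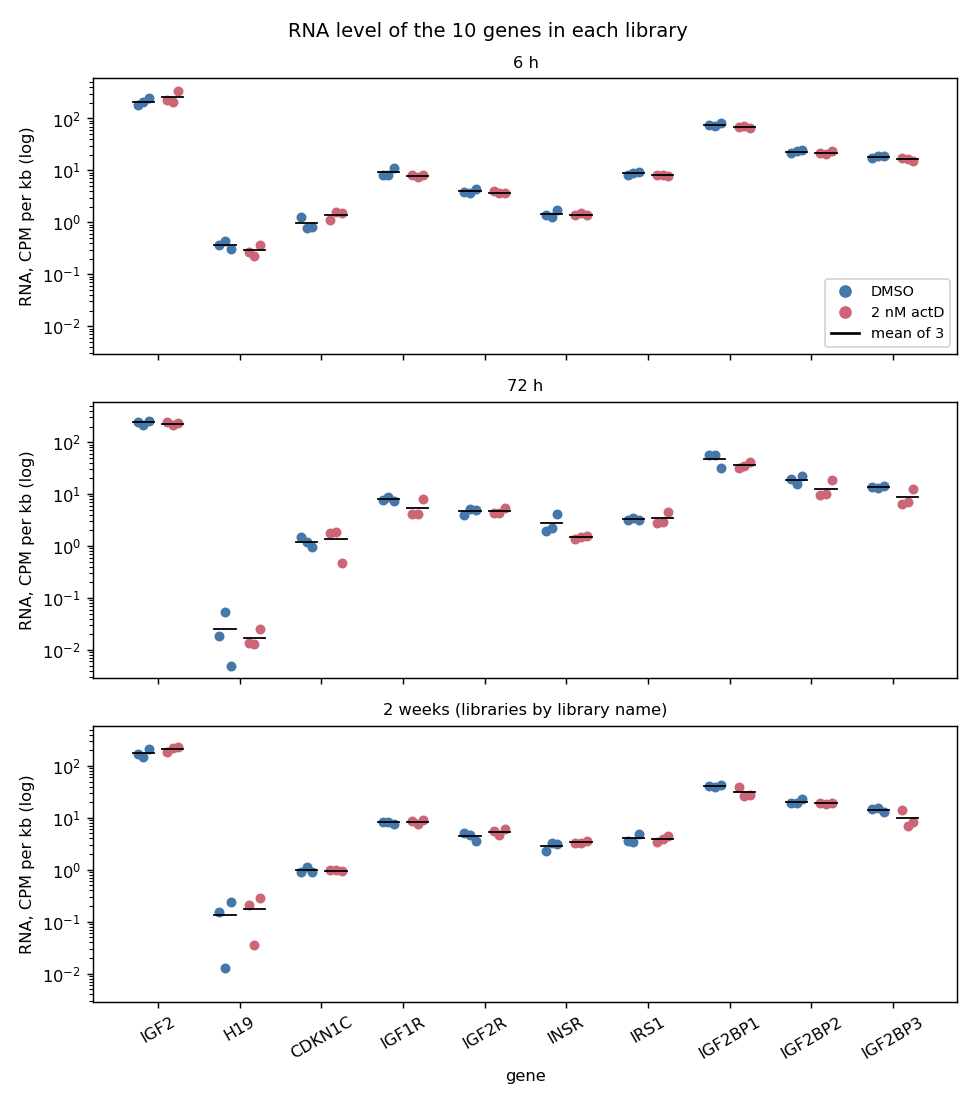
RNA level of the 10 genes in CPM per kb of exon (log axis), 1 point per library with a line at the mean of 3, DMSO and 2 nM actD side by side, for 6 h, 72 h and 2 weeks (arms by library name). IGF2 sits highest and H19 lowest in each panel, and at 2 weeks the low H19 points are replicate 2 of both arms.

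IGF2 RNA did not pass the test at any time, and the arms overlapped at all 3. At 6 h the vehicle libraries held 1245, 1468 and 1708 CPM and the actD libraries 1556, 1476 and 2359 CPM. The highest value belonged to actD replicate 3, and the log2 fold change of 0.29 (SE 0.213, edgeR adjusted p = 0.78) came to 0.04 without it. At 72 h the vehicle libraries held 1729, 1489 and 1816 CPM and the actD libraries 1675, 1481 and 1608 CPM, which gave a log2 fold change of -0.08 (SE 0.215, 95% interval -0.58 to 0.42, edgeR adjusted p = 0.895). At 2 weeks the libraries named dmso held 1172, 1020.2 and 1474 CPM and those named actd 1313, 1525 and 1624 CPM, with a log2 fold change of 0.28 (SE 0.167, interval -0.10 to 0.67, edgeR adjusted p = 0.653). Exons of IGF2 overlap INS-IGF2 and AC132217.1 on the same strand and IGF2-AS on the opposite one. The RNA kit keeps strand, but no label says whether the counting used it, so reads of the antisense partner cannot be told apart. INS-IGF2, which joins the insulin gene to IGF2, was listed at 0 to 6 counts and IGF2-AS at 87 to 497 counts per RNA library, against 53950 to 138467 counts of IGF2.

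H19 was detected at a low level, and its arms overlapped at every time. At 6 h it held 68, 81 and 57 counts in the vehicle libraries and 49, 41 and 63 in the actD libraries, a log2 fold change of -0.35 (SE 0.292, edgeR adjusted p = 0.813). Per kilobase, IGF2 exceeded H19 between 480 and 942 times in those 6 libraries. At 72 h H19 held 2, 7 and 1 counts in the vehicle libraries and 2, 2 and 4 in the actD libraries. These were too few to pass the filter on low counts, so it was not tested within 72 h and no fold is given there. H19 did enter the 72 h against 6 h effect, where its value rests on these few counts. At 2 weeks it held 26, 2 and 36 counts in the libraries named dmso and 33, 6 and 36 in those named actd. Replicate 2 was the low one in both arms, and the log2 fold change of 0.35 had an interval from -1.79 to 2.49 (edgeR adjusted p = 0.928). MIR675 was listed at 0 to 2 counts per RNA library and at 0 in 17 of 18 footprint libraries, with 1 count in the other. In the RNA tables of 6 h and 2 weeks the value 3 occurred 1.99 and 2.01 times as often as the values 2 and 4 on average, against 0.922 times at 72 h. What 1 count stands for there was not tested, and no counting limit is given for H19.

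CDKN1C, the cell cycle inhibitor of the neighbouring domain, was low throughout. At 6 h it stood at 3.12, 1.96 and 2.03 CPM in the vehicle libraries and 2.77, 3.95 and 3.80 CPM in the actD libraries. Vehicle replicate 1 lay inside the actD range, and the log2 fold change was 0.57 (SE 0.252, interval -0.01 to 1.15, edgeR adjusted p = 0.622). At 72 h actD replicates 1 and 2 held 4.45 and 4.70 CPM and replicate 3 held 1.19 CPM, around vehicle values of 3.66, 2.92 and 2.36 CPM. The log2 fold change of 0.21 there had an interval from -0.96 to 1.38. At 2 weeks all 6 libraries lay between 2.23 and 2.76 CPM (log2 fold change -0.02, SE 0.190).

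Of the receptors, INSR differed most. At 72 h INSR, the insulin receptor that in one isoform also binds IGF2, held 20.2, 22.8 and 42.5 CPM in the vehicle libraries and 14.6, 15.8 and 16.3 CPM in the actD libraries. All actD libraries lay below all vehicle libraries, with vehicle replicate 3 far above the rest. The log2 fold change was -0.87 (SE 0.306, interval -1.58 to -0.16, edgeR adjusted p = 0.322), and without vehicle replicate 3 it was -0.47 (edgeR adjusted p = 0.27). A single fit over the 18 RNA libraries gave -0.85 with an edgeR adjusted p of 0.0396, in a fit that called 1212 of 24804 genes (4.89%) at 72 h. That fit takes its spread from all times together (SE 0.226), although their count scales differ, and vehicle replicate 3 was not left out of it. The same vehicle library stood apart for other genes of the pathway: STC2, a secreted inhibitor of the protease that frees IGF from its binding proteins, held 139 CPM there against 21.5 and 18.2 CPM in the other vehicle libraries. It was also the deepest RNA library of that time, at 67342802 counts against 40221994 to 54237704, and the part of depth in the INSR result was not tested. At 6 h INSR stood between 13.2 and 18.2 CPM in all 6 libraries, with overlap (log2 fold change -0.05, SE 0.149). At 2 weeks the libraries named actd held 33.9, 34.5 and 37.9 CPM and those named dmso 24.3, 33.8 and 32.1 CPM, which do not overlap (log2 fold change 0.24, SE 0.142, edgeR adjusted p = 0.655). The effect at 72 h minus that at 6 h was -0.85 (log2, SE 0.354, adjusted p = 0.596 by edgeR). In that interaction test 0 of 10 members passed by edgeR, beside 4 of 24252 genes (0.0165%). An unadjusted edgeR p under 0.05 was found for 1 member (background 8.02%). DESeq2 also called 0 members, and its share over all genes is not given here.

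IGF1R, the main signalling receptor for IGF2, overlapped between the arms at all times. At 72 h its vehicle libraries held 107.7, 121 and 102 CPM and its actD libraries 57.3, 58.9 and 110.9 CPM. The first 2 actD libraries lay below all vehicle libraries and replicate 3 among them, so the log2 fold change of -0.54 (SE 0.288, edgeR adjusted p = 0.471) came to -0.93 without replicate 3. At 6 h and 2 weeks the log2 fold changes were -0.22 (SE 0.145) and 0.05 (SE 0.114). IGF2R, the scavenging receptor, ranged from 63.0 to 107.8 CPM over the 18 RNA libraries, with log2 fold changes of -0.08, -0.03 and 0.29 at 6 h, 72 h and 2 weeks. IRS1, the adaptor, ranged from 77.9 to 91.8 CPM at 6 h, 27.7 to 45.7 CPM at 72 h and 33.4 to 49.7 CPM at 2 weeks, with log2 fold changes of -0.11, 0.07 and -0.03. For both genes the arms overlapped at every time.

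The 3 IGF2 mRNA-binding proteins had negative log2 fold changes at all 3 times (at 2 weeks with the arms signed by library name, and positive ones if signed by title), and none passed the test. IGF2BP3 at 72 h held 115.1, 111.1 and 124.4 CPM in the vehicle libraries and 55.0, 59.4 and 108.8 CPM in the actD libraries. The arms did not overlap, but actD replicate 3 came close to the vehicle, and the log2 fold change of -0.65 (SE 0.286, edgeR adjusted p = 0.389) was -1.03 without it. For IGF2BP2 actD replicate 3 was again the highest of its arm and the arms overlapped, with 90.5, 74.9 and 105.9 CPM in the vehicle and 46.3, 47.4 and 88.4 CPM under actD (log2 fold change -0.58, SE 0.298, edgeR adjusted p = 0.461). For IGF2BP1 it was vehicle replicate 3 that lay low at 72 h, at 290.2 CPM beside 515 and 505 CPM, with actD libraries at 294, 316 and 380.2 CPM (log2 fold change -0.40, SE 0.272). At 2 weeks IGF2BP1 held 368, 359 and 397 CPM in the libraries named dmso and 359, 238 and 252 CPM in those named actd (log2 fold change -0.40, SE 0.171, edgeR adjusted p = 0.546). IGF2BP3 held 125, 133 and 108.4 CPM in the libraries named dmso and 119, 60.2 and 71.8 CPM in those named actd (log2 fold change -0.55, SE 0.241, edgeR adjusted p = 0.562). In both genes replicate 1 named actd lay with the other arm; without it the IGF2BP3 value was -0.87. At 6 h the log2 fold changes were -0.14, -0.07 and -0.15 for IGF2BP1, IGF2BP2 and IGF2BP3. Exons of IGF2BP1 overlap 2 antisense genes and those of IGF2BP3 overlap MALSU1 on the opposite strand, so their counts carry the uncertainty on strand given for IGF2.

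Over the whole axis, no RNA change passed the test within a time point. With edgeR's quasi-likelihood test and Benjamini-Hochberg adjustment, 0 of 10 tested members were called at 6 h (background 0 of 22669 genes, 0%), 0 of 9 at 72 h (1 of 21195 genes, 0.00472%) and 0 of 10 at 2 weeks (0 of 21137 genes, 0%). With DESeq2 the members called were also 0, 0 and 0, against backgrounds of 0.869%, 2.87% and 0.894%. At 2 weeks DESeq2 gave no adjusted p for 1 member, H19. Unadjusted p-values under 0.05 were found for 0, 1 (INSR) and 1 (IGF2BP1) members, against 8.21%, 13.1% and 8.93% of all genes. The arms did not overlap for 1 of 10 members at 6 h (IGF2BP1, lower, background 8.17% lower and 7.66% higher), for 2 of 9 at 72 h (INSR and IGF2BP3, lower, background 10.3% lower and 10.5% higher) and for 1 of 10 at 2 weeks (INSR, higher, background 7.83% lower and 7.86% higher). At 72 h 7 of 9 members had a negative log2 fold change, with a median of -0.40 over the members and 0.02 over all genes. At 6 h 8 of 10 were negative (median -0.10, all genes 0.02), and at 2 weeks 5 of 10 (median 0.01, all genes -0.02). The 3 comparisons use separate vehicle libraries. In the single fits over the 18 libraries of an assay, INSR at 72 h was the only member called, where the fits called 0.00403%, 4.89% and 0% of genes in RNA and 0.0251%, 2.41% and 0% in footprints at 6 h, 72 h and 2 weeks.

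**Figure D2:**
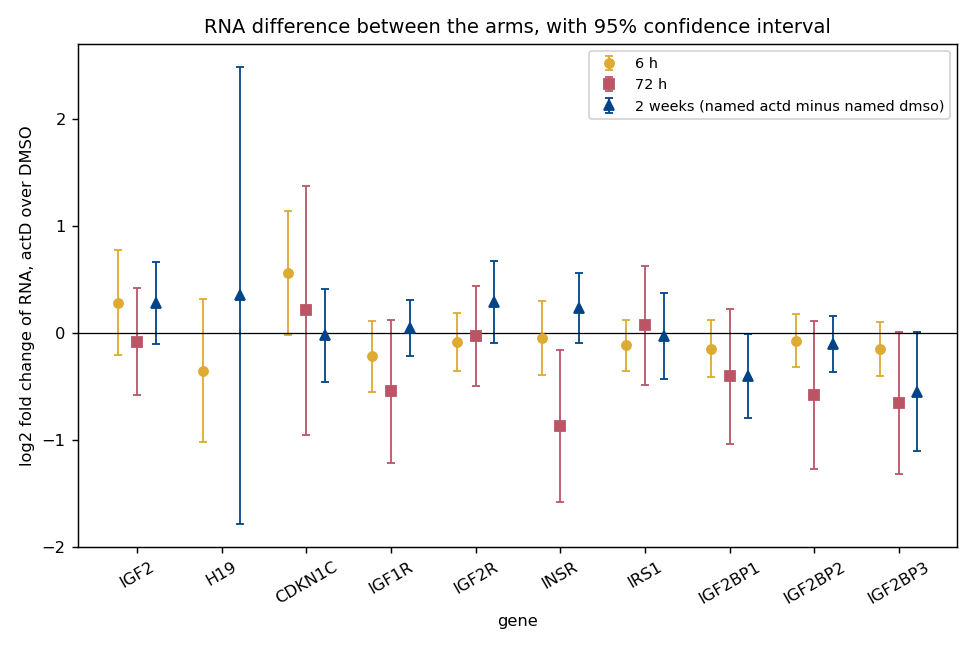
log2 fold change of RNA between the arms for each gene at 6 h, 72 h and 2 weeks (named actd minus named dmso), as points with 95% confidence intervals from the edgeR fit. Only the intervals of INSR at 72 h and IGF2BP1 at 2 weeks leave out 0, before adjustment over all genes.

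Footprints of the axis came mainly from IGF2, IGF2BP1 and IGF1R, and the shallow libraries left few counts. H19, a noncoding RNA, held 0 footprint counts in all 18 libraries, where a count of 0 allows up to 3 counts. CDKN1C held 0 or 1, INSR 0 to 5 and IRS1 0 to 15. IGF2 held 82, 56 and 29 counts in the vehicle and 17, 44 and 51 under actD at 6 h, 21, 49 and 8 against 89, 27 and 52 at 72 h, and 52, 103 and 37 against 69, 68 and 49 at 2 weeks. After scaling, the arms overlapped at all times, with log2 fold changes of 0.19 (SE 0.551), -0.20 (SE 0.536) and -0.01 (SE 0.333). IGF2BP1 held 34 to 103 counts in the vehicle and 32 to 54 under actD at 6 h, 10 to 147 against 43 to 282 at 72 h, and 47 to 77 against 27 to 67 at 2 weeks, with log2 fold changes of 0.07 (SE 0.417), -0.45 (SE 0.583) and -0.55 (SE 0.378). Such intervals are wide: for IGF2 at 72 h it ran from -1.44 to 1.03. With library totals in place of TMM, IGF2 and IGF2BP1 at 6 h turned to -0.38 and -0.67.

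The number of members that passed the filter on low counts in footprints was 2 at 6 h, 4 at 72 h (with IGF1R and IGF2R) and 4 at 2 weeks (with IGF1R and IGF2BP2), and these are not all members. By edgeR 0 of 2, 0 of 4 and 0 of 4 were called, beside 0 of 1212 genes (0%), 92 of 2426 (3.79%) and 0 of 1598 (0%). DESeq2 also called 0 at each time (backgrounds 0.825%, 4.41% and 0%), and the number with an unadjusted p under 0.05 was 0 at each time (backgrounds 3.14%, 27.3% and 8.57%). None of these members had arms that did not overlap, where the background was 9.41% at 6 h (5.69% lower, 3.71% higher), 35.7% at 72 h (16.2% lower, 19.5% higher) and 14.9% at 2 weeks (6.57% lower, 8.32% higher). The adjusted p-values lay between 0.328 (IGF2R at 72 h) and 0.987 (IGF2 at 2 weeks). IGF2R at 72 h held 20, 8 and 4 counts in the vehicle and 42, 23 and 41 under actD, which after scaling was 26.8 to 49.75 CPM against 48.8 to 62.7 CPM (log2 fold change 0.56, SE 0.352). IGF1R at 72 h held 46, 28 and 10 counts against 49, 22 and 91 (log2 fold change -0.38, SE 0.363). The actD libraries of that time were deeper, at 416131 to 784322 counts against 152556 to 440974, and the part of depth in these values was not tested. Below the filter, IGF2BP3 at 6 h held 10, 11 and 2 counts in the vehicle and 0, 0 and 2 under actD.

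**Figure D3:**
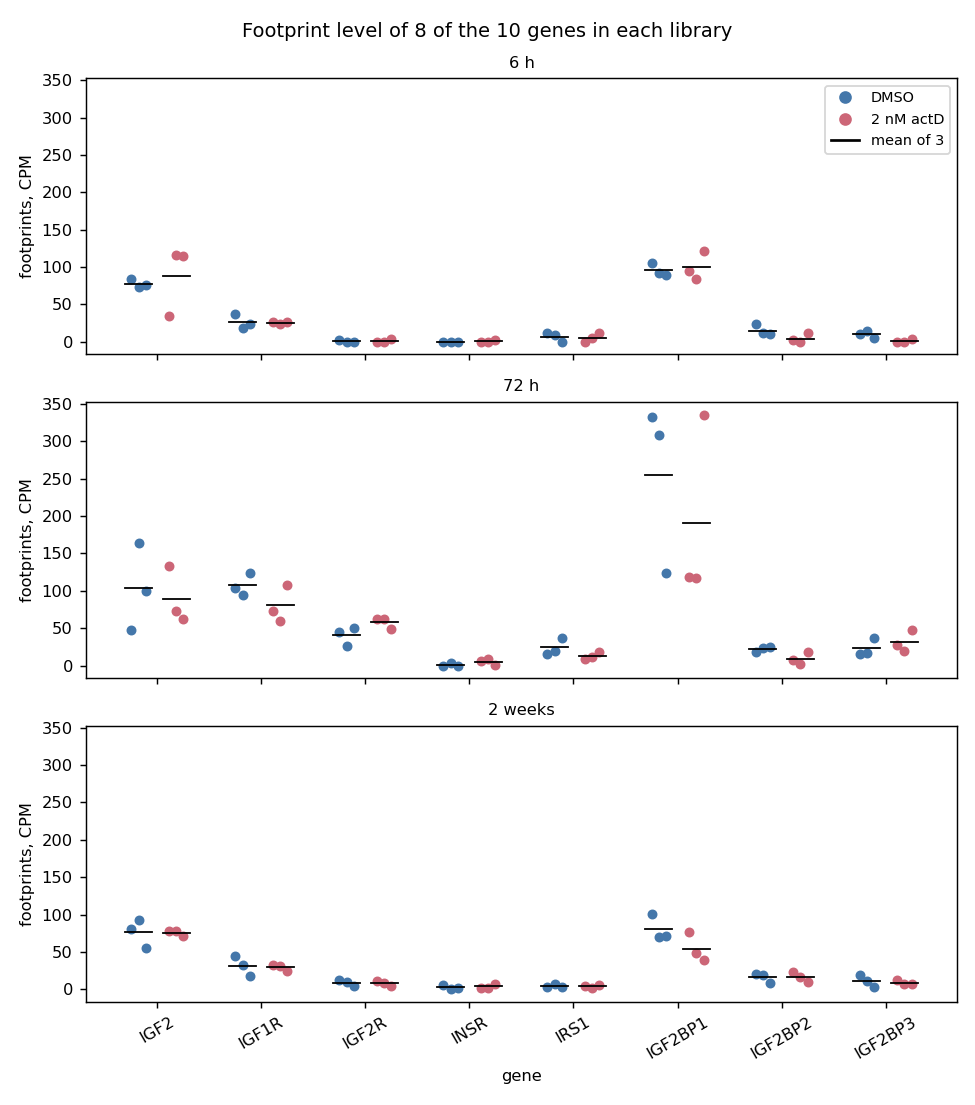
Footprint level in CPM of 8 of the 10 genes (H19 and CDKN1C held 0 or 1 counts), 1 point per library with a line at the mean of 3, for DMSO and 2 nM actD at each time. The arms of IGF2, IGF1R and IGF2BP1 overlap in each panel, and IGF2BP1 at 72 h spreads from 117 to 335 CPM within the actD arm.

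Translational efficiency, the footprint difference relative to the RNA difference, was taken from the interaction of assay and treatment. By edgeR 0 of 2, 0 of 4 and 0 of 4 members were called at 6 h, 72 h and 2 weeks, with 0 at an unadjusted p under 0.05 (backgrounds 5.26%, 14.9% and 5.14%). Over all genes edgeR called 0 of 951 (0%), 10 of 2311 (0.433%) and 0 of 1441 (0%). DESeq2 also called 0 members, and its share over all genes is not given here. IGF2 had interaction values of -0.13 (SE 0.553), -0.26 (SE 0.631) and -0.36 (SE 0.351), and IGF2BP1 of 0.21 (SE 0.283), -0.23 (SE 0.626) and -0.19 (SE 0.372). At 2 weeks the RNA arms entered by library name, and entered by title the values were 0.26 for IGF2 and -0.96 (SE 0.373, edgeR adjusted p = 0.183) for IGF2BP1. In the vehicle arms themselves, IGF2 had few footprints for its RNA when taken per gene, among genes that passed a filter on footprint counts. At 2 weeks the RNA arm used was the one named dmso, whose titles say actD. The footprint CPM of IGF2 over its RNA CPM was 0.0526 at 6 h, 0.0619 at 72 h and 0.0625 at 2 weeks. The median of 1202, 1415 and 1218 protein-coding genes with a mean of at least 10 counts in both assays was 0.212, 0.840 and 0.230. Of those genes 4.41%, 0.848% and 5.34% lay lower. The filter admits a gene with little RNA only at a high ratio, and an abundant RNA such as IGF2 at a lower one. The part of the filter in this position was not tested. The position also depends on length, since the coding part of IGF2 is 708 bases at most and its merged exons 6979 bases. Per base of coding sequence and of exon, the ratio was 0.518, 0.610 and 0.616, with 40.9%, 6.36% and 43.4% of genes lower. IGF1R and IGF2BP1 lay nearer the middle, with 48.1% and 29.8% of genes lower at 6 h on the first scale.

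MIR483, in the intron of IGF2, gave up to 1060 counts in the footprint libraries of 6 h. The vehicle libraries held 5, 312 and 322 counts and the actD libraries 1060, 363 and 73, with overlap and a log2 fold change of 1.40 (SE 1.62, edgeR adjusted p = 0.889). In the same order, microRNA genes took 4.67%, 45.1% and 60.8% of the vehicle libraries and 71.4%, 58.5% and 16.1% of the actD libraries. MIR483 was 0.0224% of the microRNA counts in vehicle replicate 1 and between 0.0991% and 0.142% in the other 5 libraries, so its count was high where the microRNA share of the library was high. At 72 h and 2 weeks it held 0 to 8 counts per footprint library, and in RNA 0 to 21 counts. The labels name a small RNA library kit for the footprints, and the part of free microRNA in these counts was not tested.

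**Figure D4:**
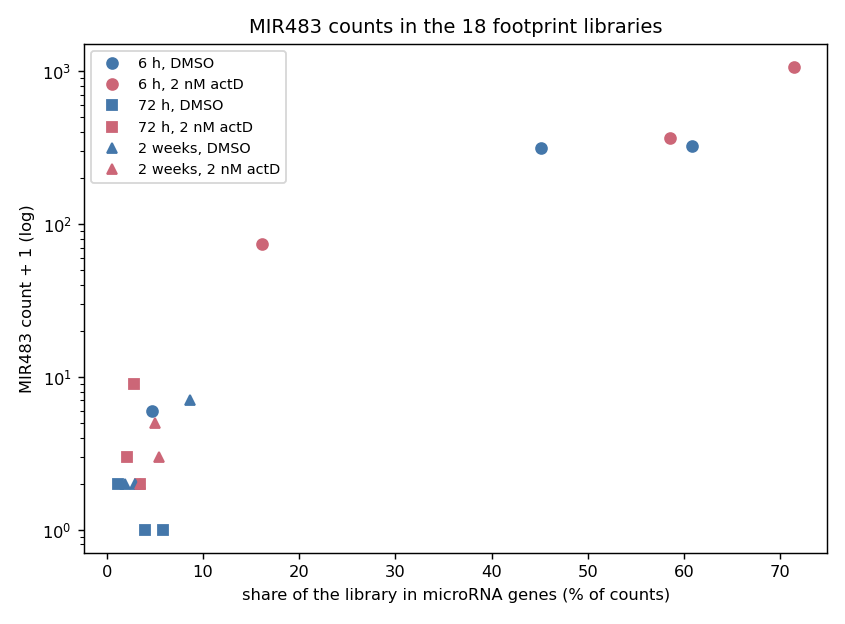
MIR483 count plus 1 (log axis) against the share of counts in microRNA genes (percent) for the 18 footprint libraries, colours for DMSO and 2 nM actD and symbols for time. The 5 libraries of 6 h with a microRNA share of 16.1% or more hold 73 to 1060 counts, and the other 13 libraries hold 0 to 8.

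Partners of the pathway were followed in a list of 41 IGF-binding proteins, adaptors, kinases and their regulators. By edgeR 0 of 38, 0 of 37 and 0 of 36 tested genes were called in RNA at 6 h, 72 h and 2 weeks, while 7, 5 and 5 had an unadjusted p under 0.05 (backgrounds 8.21%, 13.1% and 8.93%) and DESeq2 called 0, 1 (STC2) and 0 (backgrounds 0.869%, 2.87% and 0.894%). Medians were 0.05, -0.07 and -0.01 on the log2 scale, beside 0.02, 0.02 and -0.02 over all genes. At 72 h STC2 had the largest difference, with actD libraries at 9.40, 8.62 and 9.004 CPM (log2 fold change -2.73, SE 0.772, edgeR adjusted p = 0.271). Without vehicle replicate 3, described above, it was -1.15. IRS2, the second common adaptor of these receptors, was separated and lower (-0.85, SE 0.390). AKT1, the kinase downstream of PI3 kinase, was separated and higher (0.84, SE 0.224, edgeR adjusted p = 0.265), as was the PI3 kinase regulatory subunit PIK3R2 (1.29, SE 0.428). PIK3R2 averaged only 1.75 CPM at 72 h, where its median over the 18 RNA libraries was 60.8 CPM (0.694 to 164). The cause of this gap between the times was not tested. At 6 h separated genes of the list were PIK3CD (-0.71), STC1 (0.50) and IRS2 (-0.36), and at 2 weeks IGFBP7 (-0.59), IGFBP6 (0.41), STC1 (0.40) and STC2 (-0.37). In footprints 1, 4 and 2 genes of the list were tested and none was called, and IGFBP2 at 72 h was separated and higher (1.00, SE 0.520, edgeR adjusted p = 0.246). That was 1 of 4 genes, beside 19.5% of all genes at 72 h. Separated arms were found for 10 of 38, 12 of 37 and 8 of 36 genes in RNA, beside 15.8%, 20.9% and 15.7% of all genes. The single fit over the 18 RNA libraries, which called 4.89% of genes at 72 h, also called STC2 (-2.71, edgeR adjusted p = 0.00925), AKT1 (0.86, adjusted p = 0.0283) and PIK3R2 (1.305, adjusted p = 0.0376) there. These calls rest on a spread taken from all times together, with an SE of 0.538 for STC2 against 0.772 within 72 h. Vehicle replicate 3 was not left out of that fit.

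Among 16 other genes of the 2 imprinted domains and their surroundings, 0 of 12, 0 of 11 and 0 of 13 tested were called in RNA by edgeR at 6 h, 72 h and 2 weeks. An unadjusted p under 0.05 was found for 1, 2 and 3 (backgrounds 8.21%, 13.1% and 8.93%), and DESeq2 called 0, 1 (CARS) and 0 (backgrounds 0.869%, 2.87% and 0.894%). Their medians were -0.16, -0.29 and -0.17, with 8, 8 and 7 negative. CARS, the cysteinyl-tRNA synthetase next to that domain, was separated and lower at 72 h, with 16.0, 16.2 and 19.3 CPM under actD against 31.9, 33.1 and 75.7 CPM (log2 fold change -1.45, SE 0.360, edgeR adjusted p = 0.26). Its highest value was again vehicle replicate 3, and without it the value was -0.93. The single fit over the 18 RNA libraries, with its spread taken from all times together, called CARS at 72 h (-1.43, SE 0.248, edgeR adjusted p = 0.00399). Vehicle replicate 3 was not left out of that fit. At 2 weeks CARS (-0.33) and OSBPL5 (-0.54) were separated and lower and TSSC4 (0.36) higher, and at 6 h OSBPL5 was lower (-0.43) and PHLDA2 higher (0.41). In RNA, 1 of 12, 1 of 11 and 3 of 13 of these genes were separated and higher (backgrounds 7.66%, 10.5% and 7.86%). Separated and lower were 1, 1 and 2 of them (backgrounds 8.17%, 10.3% and 7.83%). In footprints 1 gene of these was tested, at 72 h, and it was not called. Of 26 imprinted genes elsewhere, 0 of 20, 0 of 20 and 0 of 18 were called in RNA (0, 2 and 5 at an unadjusted p under 0.05, and 0, 0 and 1 by DESeq2, beside the same backgrounds). PEG3, a paternally expressed zinc finger gene, was the one called by DESeq2 (-0.77, adjusted p = 0.0183) and was separated and lower at 2 weeks in edgeR (-0.78, SE 0.191, adjusted p = 0.399). PLAGL1 (0.71), NAP1L5 (0.41) and SGCE (0.37) were separated and higher there. At 72 h MEST (-0.64) was separated and lower and SGCE (0.48) and MESTIT1 (0.58) higher, with SGCE called in the single fit (0.51, edgeR adjusted p = 0.0398), and at 6 h ZIM2 (-0.30) lower and UBE3A (0.19) higher. Of the imprinted genes, 1 of 20, 2 of 20 and 4 of 18 were separated and higher in RNA (backgrounds 7.66%, 10.5% and 7.86%). Separated and lower was 1 at each time (backgrounds 8.17%, 10.3% and 7.83%). In footprints 4, 5 and 4 of the imprinted genes were tested, and edgeR and DESeq2 called none. PEG10 was separated and lower at 6 h (-0.43) and 72 h (-1.93, SE 1.02), ZDBF2 lower at 72 h (-0.65) and GNAS higher at 72 h (1.05). In footprints 1 of 4 at 6 h and 2 of 5 at 72 h were separated and lower (backgrounds 5.69% and 16.2%). Separated and higher was 1 of 5 at 72 h (background 19.5%).

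The factors that act on the locus or on IGF2 mRNA gave the only genes of these 5 lists that edgeR called in a fit of 1 assay and time, in footprints at 72 h. UHRF1, which brings the maintenance methyltransferase DNMT1 to newly replicated DNA, fell by 2.54 (log2 fold change, edgeR adjusted p = 0.0473, SE 0.477), with 43, 59 and 5 counts in the vehicle libraries and 14, 6 and 21 in the deeper actD libraries. TRIM28, the corepressor that protects methylation at imprinted regions, fell by 2.12 (edgeR adjusted p = 0.0498, SE 0.464), with 80, 42 and 6 counts against 26, 6 and 31. After scaling all actD libraries lay below all vehicle libraries for both genes, at 16.3 to 25.0 CPM against 62.2 to 198 CPM for UHRF1 and 16.3 to 38.8 CPM against 74.6 to 181 CPM for TRIM28. They are 2 of the 5 genes of the 16 that could be tested, beside a background of 3.79% called and 16.2% separated and lower. The list was chosen with earlier results of these data known, so this share is a description only. DESeq2 also called both genes (background 4.41%). Both edgeR calls ended with library totals in place of TMM (edgeR adjusted p = 0.231 and 0.277), and that of TRIM28 with 1 fit over the 18 footprint libraries (0.0532). Leaving out 1 library ended the TRIM28 call in 6 of 6 cases (edgeR adjusted p = 0.0507 to 0.232) and the UHRF1 call in 4 of 6, where it kept under 0.05 only without vehicle replicate 3 or actD replicate 3. In RNA at 72 h UHRF1 and TRIM28 overlapped between the arms, with vehicle replicate 3 at 7.55 CPM of UHRF1 beside 35.2 and 61.3 CPM in the other vehicle libraries. In translational efficiency at 72 h, edgeR called 0 of 5 genes of the list, and 1 had an unadjusted p under 0.05 (background 14.9%).

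UHRF1, TRIM28 and DNMT1 were separated and lower in RNA at 6 h and 2 weeks (there signed by library name), without a call by edgeR. Of the tested genes in the whole list, 9 of 14, 9 of 15 and 7 of 14 had negative values at 6 h, 72 h and 2 weeks. Medians of the list were -0.08, -0.13 and 0.01 on the log2 scale, beside 0.02, 0.02 and -0.02 over all genes. DNMT1 held 195, 198 and 186 CPM in the vehicle libraries and 128, 137 and 82.0 CPM under actD at 6 h (difference -0.74 in log2, SE 0.189, adjusted p = 0.416 by edgeR, DESeq2 adjusted p = 0.0314). At 2 weeks it held 91.8, 92.8 and 81.3 CPM in the libraries named dmso and 60.9, 42.6 and 40.3 CPM in those named actd (-0.89, SE 0.171, edgeR adjusted p = 0.316, DESeq2 adjusted p = 0.00102). UHRF1 (-0.64 and -0.71) and TRIM28 (-0.38 and -0.55) were separated and lower at both times, and DNMT3B, a de novo methyltransferase, at 2 weeks (-0.49). Of the list, 0 of 14, 0 of 15 and 0 of 14 genes were called in RNA by edgeR at 6 h, 72 h and 2 weeks, with 3, 4 and 4 at an unadjusted p under 0.05 (backgrounds 8.21%, 13.1% and 8.93%) and 1, 0 and 2 called by DESeq2 (backgrounds 0.869%, 2.87% and 0.894%). Groups did not overlap, lower, for 3 of 14 at 6 h (background 8.17%), 1 of 15 at 72 h (10.3%) and 4 of 14 at 2 weeks (7.83%). At 72 h the separated genes were ELAVL1 (-0.24) and LIN28A, an inhibitor of let-7 microRNA maturation (1.12, SE 0.431). LIN28A was the 1 of 15 that was separated and higher (background 10.5%). In footprints at 6 h TRIM28 was separated and lower (-0.94, SE 0.431), as 1 of 3 genes beside a background of 5.69%. Of the genes tested in footprints, 0 of 3 at 6 h and 0 of 4 at 2 weeks were called.

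Of 12 messages reported to be bound by IGF2BP proteins, 0 of 12, 0 of 12 and 0 of 11 were called in RNA by edgeR, with 0, 2 and 2 at an unadjusted p under 0.05 and 0, 0 and 1 (GLI1) called by DESeq2, beside the same backgrounds. Their medians were -0.11, -0.19 and -0.03. GLI1 (-0.62, SE 0.132, edgeR adjusted p = 0.358) and KIF11 (-0.63) were separated and lower at 2 weeks, and BTRC (-0.23) lower at 6 h. In RNA, 1 of 12, 1 of 12 and 2 of 11 were separated and lower (backgrounds 8.17%, 10.3% and 7.83%). Separated and higher were 1, 0 and 0 (backgrounds 7.66%, 10.5% and 7.86%). CTNNB1, beta-catenin, was separated and lower in footprints at 6 h (-0.50, SE 0.529) and 72 h (-1.38, SE 0.450, edgeR adjusted p = 0.105). In footprints 0 of 3, 0 of 4 and 0 of 3 of these genes were called, by edgeR and by DESeq2. Separated and lower there were 1 of 3 at 6 h and 1 of 4 at 72 h (backgrounds 5.69% and 16.2%).

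Genes whose RNA varied most like IGF2 across the 18 RNA libraries, each table centred on its own mean, were RABEP1 (Pearson r = 0.905), LDOC1 (0.870), RUNX3 (0.865), R3HDM1 (0.852) and PLEKHA3 (0.836) among 10547 genes with at least 5 CPM in every table. Of those genes 8.59% had an r above 0.5. For H19 the closest were KIAA1147 (0.762), C16orf72 (0.746), PPFIA1 (0.698), LSM4 (0.696) and SMURF2P1-LRRC37BP1 (0.679), and 0.806% were above 0.5. These values describe 18 libraries that differ in treatment and depth, and they carry no test. The part of treatment, depth or batch in them was not tested. For H19 they rest on 1 to 7 counts per library at 72 h. At 2 weeks H19 held 2 and 6 counts in replicate 2 of the 2 arms, against 26 to 36 in the other libraries.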

How the data were processed

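Total RNA and ribosome footprints were sequenced from WiT49 cells in 36 libraries, and the authors deposited 6 tables, 1 per assay and time. The deposited values are estimated counts per gene, whole numbers not scaled to depth. Reads were aligned with HISAT2 to hg38 and summarised with StringTie, per the submitters' processing notes; versions, annotation and use of strand are not given in the sources used here. Depth per library is in the opening of the report, and the precision is limited by it, most in footprints.

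Ensembl identifiers were matched to GENCODE release 29 without their version (99.4% matched). Each table was filtered with filterByExpr, scaled by TMM and tested across all genes with edgeR 4.0.16 (quasi-likelihood, two-sided, Benjamini-Hochberg, threshold 0.05) in R 4.3.3. CPM uses TMM-scaled library sizes, and CPM per kb the merged exon length. Translational efficiency and the 72 h against 6 h effect were interaction terms. Alternatives were DESeq2 1.42.0, library totals, no filter, each library left out, the replicate number as a block, 1 fit over all times of an assay, the 2-week RNA sign by titles, and transcript length. For some tested genes DESeq2 gave no adjusted p, and they count as not called. The scripts were tested on simulated data. The 2-week RNA libraries were grouped by library name and left out of the interaction over time.

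Named genes are the 10 members, 4 genes overlapping IGF2 or H19 and, from each list (signalling, neighbours, imprinted, regulators, IGF2BP-bound), up to 4 genes of at least 1 CPM whose arms did not overlap. A few genes that the rule or the marker list holds are not reported here. The members and lists were chosen with earlier results of these data known. Likeness used genes of at least 5 CPM in every table, on log2 CPM plus 1.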

Additional observations from a re-analysis of the deposited data

Results flagged for a closer look

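For INSR in RNA, all 3 actD libraries lay below all 3 vehicle libraries at 72 h, and all 3 libraries named actd lay above all 3 named dmso at 2 weeks. The log2 fold changes, -0.87 and 0.24, differ by 1.109. Without vehicle replicate 3 the 72 h value was -0.47. At 2 weeks the closest libraries of the 2 arms held 33.9 and 33.8 CPM. Arms did not overlap, in either direction, for 20.9% of all genes at 72 h and 15.7% at 2 weeks. The difference of 1.109 between the times was not tested, and the direction at 2 weeks turns if the libraries are signed by their titles.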

How the results depend on the processing

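No member was called under any alternative except INSR in RNA at 72 h with 1 fit over the 18 RNA libraries, which raised the members called from 0 to 1. Of 743 refitted log2 values of the members, 666 kept their direction and side of the threshold and 76 turned, 50 of them with 1 library left out. Counted per gene and comparison, 33 of 59 member results turned in at least 1 alternative, the sign by titles included. Signed by titles, the 2-week RNA values were -0.28 (IGF2), -0.35 (H19), 0.021 (CDKN1C), -0.049 (IGF1R), -0.29 (IGF2R), -0.24 (INSR), 0.026 (IRS1), 0.40 (IGF2BP1), 0.10 (IGF2BP2), 0.55 (IGF2BP3), 0.63 (KIF11), 0.62 (GLI1), 0.78 (PEG3), -0.37 (SGCE), -0.41 (NAP1L5), -0.71 (PLAGL1), 0.54 (OSBPL5), 0.33 (CARS), -0.36 (TSSC4), 0.89 (DNMT1), 0.71 (UHRF1), 0.55 (TRIM28), 0.49 (DNMT3B), 0.59 (IGFBP7), 0.37 (STC2), -0.40 (STC1) and -0.41 (IGFBP6), and translational efficiency was 0.26 (IGF2), -0.96 (IGF2BP1) and -0.082 (IGF2BP2). Library totals turned IGF1R RNA at 2 weeks (-0.11), IGF2 and IGF2BP1 footprints at 6 h (-0.38 and -0.67) and IGF2BP2 footprints at 2 weeks (-0.10). No filter turned IGF2 (-0.0036) and IGF2BP1 (-0.14) footprints at 6 h. DESeq2 turned IGF2BP2 footprints at 2 weeks (-0.0100) and translational efficiency at 72 h of IGF2 (0.057) and IGF2BP1 (0.065), and joint TMM that of IGF1R (-0.026). The single fits turned CDKN1C RNA at 2 weeks (0.0011) and IGF2 footprints at 72 h (0.017). With transcript length IGF2 moved to 263.9, 300.4 and 218.8 CPM per kb. The cause of these turns was not tested.

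With the replicate block, IGF2 footprints at 2 weeks turned to 0.013. H19 in the 72 h against 6 h effect, with 1 to 7 counts per library at 72 h, turned to 0.029. UHRF1 and TRIM28 footprints at 72 h lost their call (edgeR adjusted p = 0.142 for both). The block took the genes called in footprints at 72 h from 92 to 0 and in translational efficiency at 72 h from 10 to 0. Deviations of same-numbered libraries correlated at 0.085, 0.226 and 0.15 for 72 h RNA. For 72 h footprints the values were 0.0447, -0.0338 and -0.0305, and for those of 6 h -0.71, -0.038 and -0.745. In no table did every pair pass the 0.1 taken as pairing, so the block stands only here.

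Leaving out 1 library turned the members below, given as lowest and highest log2 value. RNA at 6 h: IGF2R -0.16 to 0.00057, INSR -0.16 to 0.10. RNA at 72 h: CDKN1C -0.076 to 0.62, IGF2R -0.16 to 0.047, IRS1 -0.20 to 0.19. RNA at 2 weeks: CDKN1C -0.078 to 0.083, H19 -0.18 to 1.03, IRS1 -0.13 to 0.17. RNA effect at 72 h against 6 h: CDKN1C -0.65 to 0.070, H19 -0.73 to 1.08 (on 1 to 7 counts per library at 72 h), IGF2R -0.054 to 0.14, IRS1 -0.069 to 0.30. Footprints at 6 h: IGF2 -0.15 to 0.55, IGF2BP1 -0.11 to 0.11. Footprints at 72 h: IGF2 -0.60 to 0.40. Footprints at 2 weeks: IGF2 -0.23 to 0.16, IGF1R -0.40 to 0.20, IGF2BP2 -0.29 to 0.22. Translational efficiency at 6 h: IGF2 -0.56 to 0.20. At 72 h: IGF2 -0.68 to 0.37, IGF1R -0.18 to 0.40, IGF2BP1 -0.88 to 0.075. At 2 weeks: IGF1R -0.42 to 0.078, IGF2BP1 -0.50 to 0.0058, IGF2BP2 -0.24 to 0.30. Footprint depth limits every footprint value.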
